A study of Glycine max with 12 samples.

Results

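The genes described here are 100 soybean genes that were higher in roots with Rhizophagus irregularis (Ri) and in roots highly colonized by Glomus aggregatum (Ga-H) than in roots without a fungus (NM) and in roots with low G. aggregatum colonization (Ga-L). They were chosen on their FPKM values (fragments scaled to gene length and library size), with a gene missing from a library set to 0. Of 49551 genes listed in at least 1 library, 25189 reached 2 FPKM or more in each of the 6 Ri and Ga-H libraries. In 19861 of these the mean of Ga-L lay between 0.67 and 1.5 times the mean of NM. They were ranked by the lowest FPKM of the 6 Ri and Ga-H libraries divided by the highest FPKM of the 6 NM and Ga-L libraries plus 0.1. The 100 genes with the highest ratio were taken, and the ratio was above 1 for 313 genes in all. Because the choice used the FPKM of all 12 libraries, the gap between the pairs of groups is the rule itself and is given only as a description.

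The libraries are RNA-seq of Glycine max roots, 3 in each of 4 groups: NM with no fungus, Ri with R. irregularis, and Ga-H and Ga-L, which differ in the labelled level of colonization by G. aggregatum. The labels give no cultivar, plant age, growth conditions or measured colonization. They call the 3 libraries of each group replicates without saying what was replicated (plants, pots or RNA), so every p-value below refers to the spread among these libraries, and part of that spread may be technical. The deposited expected counts summed to between 10182200 and 11054762 per library, so depth was nearly equal. Colonized and uncolonized root cells cannot be separated in whole-root RNA, and a change in the share of a cell type and a change in RNA per cell cannot be told apart.

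Arbuscular mycorrhizal fungi grow from the soil into the root cortex and form branched arbuscules inside cortical cells. Across the membrane around an arbuscule the plant takes up phosphate and other minerals and supplies the fungus with sugars and lipids. The root reprogrammes transcription in colonized cells and, through hormones and nutrient status, elsewhere in the root, and the reported benefit to plant growth varies with the fungus. By its title, the study asked how sugar metabolism and export relate to growth responses to mycorrhiza. The deposited tables do not pair gene IDs with names, and of 59048 genes in the RefSeq table of assembly Glycine_max_v4.0 0 carried an ID of this kind, so genes are given by ID and no function is assigned to any of them. For the same reason the labelled tissue was not checked against marker genes.

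One library has to be known before the values. In log2(FPKM + 1) over all listed genes, Ri replicate 1 correlated at 0.948 on average with the other Ri libraries and at 0.971 with the Ga-H libraries. For Ri replicate 2 these values were 0.959 and 0.957, and for Ri replicate 3 0.968 and 0.97. With the Ga-L libraries, Ri replicates 1, 2 and 3 correlated at 0.966, 0.946 and 0.956. Only Ri replicate 1 was thus closer to Ga-L than to its own group. The own-group values of replicates 2 and 3 each include the correlation with Ri replicate 1, so they do not show how close these libraries were to each other. Ri replicate 1 had the lowest correlation with its own group and the widest gap between its own-group and Ga-H values. These correlations are across genes, which are not independent replicates. Results that rest on Ri replicate 1 are given with and without it.

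The 100 genes were expressed at moderate levels and most of the differences were small. Their mean over the 6 Ri and Ga-H libraries ran from 3.01 to 1095 FPKM with a median of 12, and their mean over the 6 NM and Ga-L libraries from 0.992 to 279.8 FPKM with a median of 6.4. The ratio of these means ranged from 1.19 to 13, with a median of 1.94 and quartiles of 1.5 and 2.61. It was at least 2 for 49 genes, at least 3 for 16 and at least 5 for 5, which were Glyma.15G051200.Wm82.a2.v1 (13), Glyma.11G168800.Wm82.a2.v1 (8.54), Glyma.08G176300.Wm82.a2.v1 (7.6), Glyma.09G190600.Wm82.a2.v1 (5.93) and Glyma.14G209700.Wm82.a2.v1 (5.45), the last pair named after their values were seen. All 100 genes were detected in all 12 libraries, with a lowest rounded count of 6, so none was absent without a fungus. The median of the members' mean counts was 147 in NM and Ga-L and 273 in Ri and Ga-H, and all 100 passed the low-count filter. Library by library, the members' median FPKM was 6.07, 6.51 and 6.45 in NM, 6.37, 6.13 and 5.83 in Ga-L, 10.6, 11.4 and 10.2 in Ga-H and 9.28, 14.7 and 12.3 in Ri. The Ri medians were thus the most uneven, with replicate 1 below all Ga-H libraries and replicates 2 and 3 above them. After TMM scaling of the counts, the 6 Ri and Ga-H libraries were still all above the 6 NM and Ga-L libraries in 100 of the 100 genes, and after scaling to the upper quartile in 96.

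**Figure D1:**
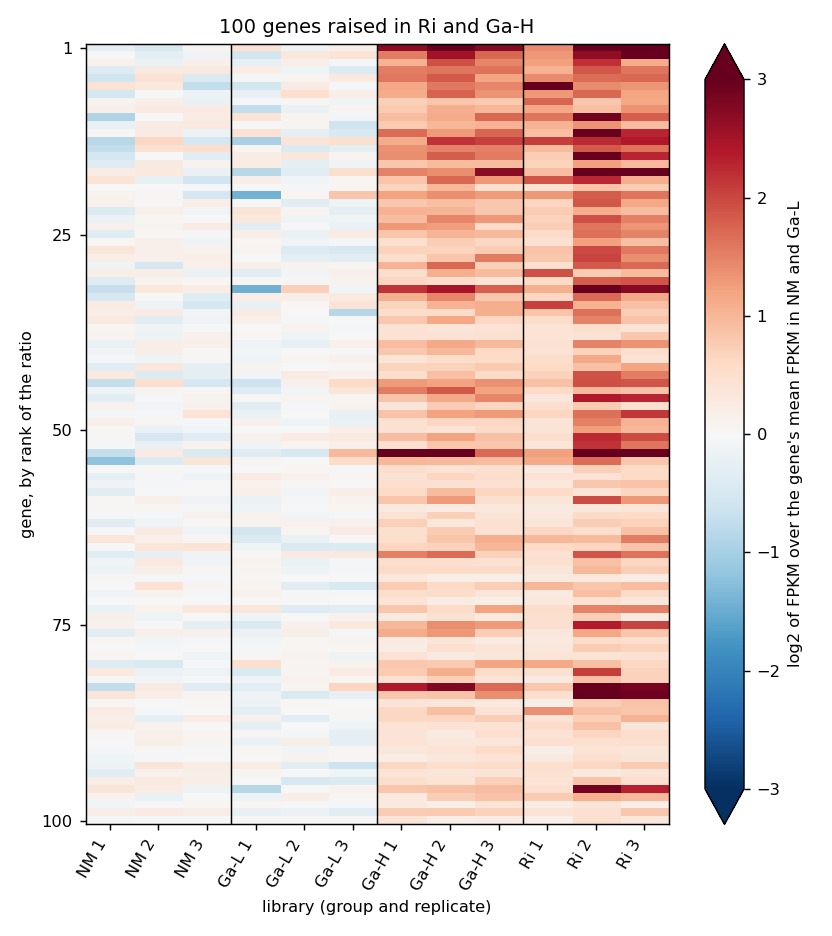
FPKM of the 100 genes in the 12 libraries, as log2 of each value over the gene's mean in the 6 NM and Ga-L libraries (colour), with genes in rows by rank of the ratio and libraries in columns. Values beyond 3 are drawn in the end colours. The NM and Ga-L columns are pale by the choice of the genes, and the Ri replicate 1 column is paler than those of Ri replicates 2 and 3 in most rows.

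Glyma.11G168800.Wm82.a2.v1 had the highest ratio, 1.85. It was at 0.91, 0.8 and 1.17 FPKM in NM replicates 1 to 3 and at 1.51, 1.04 and 1.23 in Ga-L. In Ga-H it was at 7.14, 11.2 and 7.48 FPKM and in Ri at 2.98, 16.4 and 11.7. Ri replicate 1 was the lowest of the 6 high libraries and stood well below the other 5. The mean of the 6 was 8.54 times that of the NM and Ga-L libraries. Next was Glyma.13G051900.Wm82.a2.v1, with a ratio of 1.79. Its FPKM was 2.56, 2.14 and 2.4 in NM, 1.78, 3.24 and 3.46 in Ga-L, 7.69, 14.9 and 8.57 in Ga-H, and 6.38, 16.4 and 23.4 in Ri. Again Ri replicate 1 was the lowest of the high libraries, and Ri replicates 2 and 3 were the highest 2.

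Glyma.19G011400.Wm82.a2.v1 differed from these in that Ri replicate 1 was not the lowest. Its FPKM was 6.28, 5 and 6.39 in NM, 4.84, 6.62 and 5.59 in Ga-L, 11.9, 21.8 and 16.1 in Ga-H, and 13.7, 26.4 and 12.5 in Ri, so that Ga-H replicate 1 set the ratio of 1.78. In Glyma.11G233400.Wm82.a2.v1 the order within Ri was the opposite of the usual one. It had 32.9 FPKM in Ri replicate 1 and 10.6 and 9.94 in the other Ri libraries, against 8.84, 11.9 and 10.9 in Ga-H, 5.23, 4.95 and 2.38 in NM and 2.68, 4.68 and 3.82 in Ga-L. Glyma.03G078700.Wm82.a2.v1 was of the same kind, with 27.5 FPKM in Ri replicate 1 and 14.4 and 18.6 in Ri replicates 2 and 3, beside 13.5 to 14.7 in Ga-H, 7.15 to 9.35 in NM and 7.71 to 8.56 in Ga-L. Ri replicate 1 was thus not low in every member.

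The members Glyma.09G190600.Wm82.a2.v1 and Glyma.14G209700.Wm82.a2.v1, whose means differed by 5.93 and 5.45 times, showed the same order within Ri. Glyma.09G190600.Wm82.a2.v1 was at 0.79, 1.59 and 1.48 FPKM in NM, 0.47, 2.09 and 1.2 in Ga-L, 5.74, 7.09 and 4.39 in Ga-H and 2.64, 16.8 and 8.49 in Ri. Glyma.14G209700.Wm82.a2.v1 was at 1.53, 3.08 and 1.98 FPKM in NM, 2.05, 2.72 and 3.99 in Ga-L, 13.5, 18 and 8.33 in Ga-H and 4.46, 20.6 and 18.8 in Ri. In each, Ri replicate 1 was the lowest and Ri replicate 2 the highest of the 6 high libraries.

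A further 3 members among the 10 highest ratios are given by their group means. Glyma.01G028500.Wm82.a2.v1 averaged 2.57 ± 0.459 FPKM in NM (SD, n = 3), 3.39 ± 0.85 in Ga-L, 8.07 ± 1.86 in Ga-H and 7.99 ± 1.62 in Ri. Glyma.02G036400.Wm82.a2.v1 averaged 3.95 ± 0.169, 2.86 ± 0.776, 6.64 ± 0.712 and 7.56 ± 1.18 FPKM in the same groups, and its Ga-L mean was 0.724 times its NM mean. Glyma.09G109800.Wm82.a2.v1 averaged 2.55 ± 0.936, 3.14 ± 0.551, 6.99 ± 2.17 and 13.3 ± 6.85 FPKM, with the largest SD in Ri, where replicate 2 reached 21.1. In the first pair of these genes the Ri and Ga-H means lay closer to each other than to NM or Ga-L, whereas in the last the Ri mean lay further from Ga-H than Ga-H did from NM and Ga-L.

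Glyma.15G238100.Wm82.a2.v1 and Glyma.15G238200.Wm82.a2.v1 have consecutive numbers on chromosome 15 and ranked 4 and 14. The first was at 9.28, 14.7 and 14.6 FPKM in NM, 14.1, 11.1 and 9.22 in Ga-L, 35.2, 36.9 and 37.8 in Ga-H and 25.2, 44.4 and 37.1 in Ri. The second was at 23.4, 53.5 and 56.7 FPKM in NM, 40.5, 29.1 and 31.7 in Ga-L, 100.4, 109 and 111 in Ga-H and 75.7, 140 and 120 in Ri. Both were lowest in NM replicate 1 or Ga-L replicate 3, and Ri replicate 1 was the lowest high library of each. The nearest listed IDs on either side did not share the pattern: Glyma.15G237900.Wm82.a2.v1 ranged from 3.31 to 5.1 FPKM over the 12 libraries and Glyma.15G238400.Wm82.a2.v1 from 4.89 to 23.1, with the groups overlapping in both. Neighbouring genes can be near-identical copies, and expected counts divide shared reads between such copies, so the separate values of this pair are uncertain.

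The other neighbouring members were Glyma.06G050600.Wm82.a2.v1 and Glyma.06G050900.Wm82.a2.v1 on chromosome 6, ranked 85 and 84. The former had small differences between groups, at 7.92 ± 0.068 FPKM in NM (SD, n = 3), 7.6 ± 0.554 in Ga-L, 9.9 ± 0.328 in Ga-H and 11.9 ± 2.74 in Ri. The latter was at 7.03, 6.28 and 5.79 FPKM in NM, 5.08, 4.04 and 4.62 in Ga-L, 9.58, 9.84 and 14.5 in Ga-H and 7.77, 58.7 and 41.1 in Ri. The 2 IDs between them ranked 1565 and 7871 by the same ratio, so the pair is not a run. No other members lay within 5 IDs of each other. The members were spread over all 20 chromosomes named in the IDs, with 12 on chromosome 13 and 2 on each of chromosomes 12 and 19 at the extremes.

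Among abundant members, Glyma.16G037900.Wm82.a2.v1 had the highest level, 1095 FPKM on average in Ri and Ga-H. It was at 194, 281 and 225 FPKM in NM, 328, 356 and 294 in Ga-L, 735, 991 and 828 in Ga-H, and 469, 2187 and 1359 in Ri. Here every Ga-L library was above every NM library, and Ri replicate 1 lay between Ga-L and Ga-H. Glyma.18G190000.Wm82.a2.v1 followed, at 119, 241 and 133 FPKM in NM, 173, 190 and 222 in Ga-L, 541, 645 and 409.9 in Ga-H and 478, 575 and 596 in Ri. Its Ri and Ga-H libraries overlapped and its NM and Ga-L libraries overlapped. Glyma.13G199800.Wm82.a2.v1 averaged 118 ± 22.3 FPKM in NM (SD, n = 3), 135 ± 31.5 in Ga-L, 247 ± 21.9 in Ga-H and 241 ± 28.2 in Ri. Glyma.09G235400.Wm82.a2.v1 averaged 62 ± 6.04, 59.4 ± 3.42, 93.2 ± 7.72 and 114 ± 29.6 FPKM in that order.

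**Figure D2:**
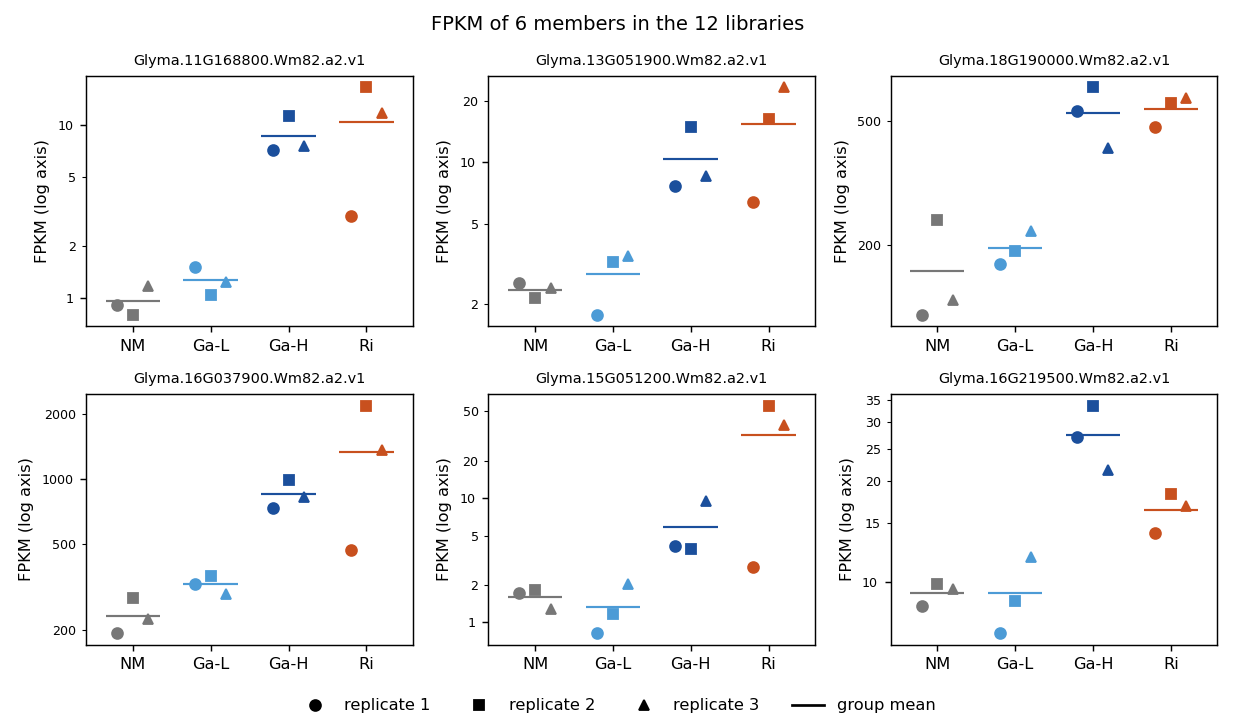
FPKM on a log axis for 6 members, with 1 point per library, the replicate shown by the marker and the group mean by a line. Ri replicate 1 is the lowest Ri point in each panel, and in Glyma.15G051200.Wm82.a2.v1 it is at 2.79 FPKM against 55.6 and 39.1 in the other Ri libraries, while in Glyma.16G219500.Wm82.a2.v1 all 3 Ri libraries lie below the Ga-H libraries.

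At the end of the list the gap was narrow. The members ranked 98, 99 and 100, Glyma.17G150200.Wm82.a2.v1, Glyma.07G200200.Wm82.a2.v1 and Glyma.14G189900.Wm82.a2.v1, had ratios of 1.071, 1.07 and 1.069. The lowest high library of the last was at 9.72 FPKM and the highest low library at 8.99. Just outside, Glyma.20G009200.Wm82.a2.v1, Glyma.08G225500.Wm82.a2.v1 and Glyma.06G216700.Wm82.a2.v1 had ratios of 1.069, 1.069 and 1.068. The limit at 100 genes therefore falls in a continuous range of ratios.

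Calls against NM and Ga-L are a description, since the rule used these contrasts, and nothing is read from them. With edgeR (quasi-likelihood, Benjamini-Hochberg adjusted p under 0.05 over 36323 genes, all 12 libraries fitted), 83 members were called higher in Ri than in NM, where 9.08% of all genes were called higher, and 36 in Ga-H than in NM, where 6.25% were. Against Ga-L, 60 members were called higher in Ri (1.56% of all genes) and 13 in Ga-H (0.374% of all genes). Between Ga-L and NM, 0 members were called in edgeR, beside 13.6% of all genes, 6 had an unadjusted p under 0.05, beside 30.4%, and DESeq2 called 0, beside 15.7%. All Ga-L libraries were above all NM libraries in 8 members, beside 17.1% of all genes, and below them in 12, beside 22%. The median log2 fold change of the members was 0.98 in Ri and 0.74 in Ga-H against NM, 0.99 in Ri and 0.77 in Ga-H against Ga-L, and 0.05 in Ga-L against NM, while over all genes tested these medians were 0.03, 0, 0.03, 0.01 and 0.01. These comparisons share their control libraries. The counts turned on the libraries fitted, as did the shares of all genes called. With only the compared groups in the fit, 28 members were called higher in Ri and 66 in Ga-H against NM, and 0 in Ri and 55 in Ga-H against Ga-L. In these fits 5.65%, 11.8%, 0.0288% and 7.06% of all genes were called in either direction. With all 12 libraries fitted these shares were 13.1%, 8.12%, 4.26% and 0.84%. In the 2 fits against Ga-L, 94 and 89 members had an unadjusted p under 0.05, beside 16% and 24.7% of all genes. DESeq2 called 79 and 42 against Ga-L, beside 7.96% and 5.8% of all genes. These shares and those that follow in this paragraph are for either direction. For Ri against NM the edgeR count was 88 without Ri replicate 1 and 55 without Ri replicate 2, beside 27.9% and 7.9% of all genes called. For Ga-H against NM it was 17, 23 and 21 without NM replicates 1, 2 and 3, beside 5.27%, 5.61% and 5.89%. It was 65 without Ri replicate 1, beside 12%, and 12 without Ga-H replicate 2, beside 4.86%. For Ri against Ga-L it was 39 without NM replicate 3, beside 2.83%. It was 82, 16 and 10 without Ri replicates 1, 2 and 3, beside 14.9%, 1.47% and 0.658%. It was 26, 6 and 11 without Ga-L replicates 1, 2 and 3, beside 2.72%, 0.605% and 1.12%. For Ga-H against Ga-L it was 56, 23 and 6 without Ri replicates 1, 2 and 3, beside 6.26%, 1.88% and 0.58%. It was 3 without Ga-H replicate 3, beside 0.246%. It was 0 without any one of NM replicate 3, Ga-H replicates 1 and 2, and Ga-L replicates 2 and 3, where at most 2 of all genes were called. In those fits with 0 members called, 70 to 78 members had an unadjusted p under 0.05 in edgeR, beside 12.6% to 18.4% of all genes. For Ga-L against NM the count was 1 without Ri replicate 2 and 2 without Ga-L replicate 1, beside 16.1% and 15% of all genes.

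The rule asked Ri and Ga-H to be high and set no direction between them, so this contrast was tested. The rule did rank on the lowest FPKM of the same 6 libraries, so a gene very low in either group could not be chosen, and the members' counts and shares beside those of all genes are a description. It asks whether the 100 genes reached the same level with R. irregularis as with highly colonizing G. aggregatum. With edgeR (Benjamini-Hochberg adjusted over all genes), 0 of the 100 members were called, beside 0.0165% of all 36323 genes, which is 6 genes. DESeq2 called 0 members, beside 0.709% of all genes, and limma on log2(FPKM + 1) called 0, beside 0.101%. At an unadjusted edgeR p under 0.05 there were 13 members, beside 9.92% of all genes. The unadjusted count was 31, beside 23.4% of all genes, without Ri replicate 1, and 6, beside 5.94%, without Ga-H replicate 1. A missed threshold does not show that the levels were equal. The log2 fold change was above 0 in 84 members, beside 51.9% of all genes, and its median was 0.19, beside 0.01. The mean FPKM was higher in Ri in 82 members, and the ratio of the Ri mean to the Ga-H mean had a median of 1.14, a lowest value of 0.598 and a highest of 5.55. Over the 19861 genes that met the level and Ga-L conditions, the mean was higher in Ri in 57.8%, and the median ratio was 1.03. Without Ri replicate 1 the median log2 fold change of the members was 0.25, and 85 were above 0, beside 48.8% of all genes. Without Ri replicate 2 the median was 0.06, and 62 were above 0, beside 50.6%.

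The widest differences between these groups lay on the side of Ri. Glyma.15G051200.Wm82.a2.v1 was at 2.79, 55.6 and 39.1 FPKM in Ri and at 4.1, 3.89 and 9.58 in Ga-H, with 1.71, 1.81 and 1.28 in NM and 0.82, 1.16 and 2.04 in Ga-L. Ri replicate 1 was below all Ga-H libraries and Ri replicates 2 and 3 far above them, so the groups overlapped. Its log2 fold change was 2.46 (SE 0.76, edgeR adjusted p = 0.38, from 0.00471 to 0.797 over the alternatives). In Glyma.06G050900.Wm82.a2.v1, whose values are given above, it was 1.66 (SE 0.51, edgeR adjusted p = 0.38, from 0.002 to 0.797). Glyma.02G303300.Wm82.a2.v1 was at 6.79, 36.1 and 24.3 FPKM in Ri, 8.56, 8.87 and 9.2 in Ga-H, 6.24, 5.61 and 4.36 in NM and 2.65, 4.88 and 5.16 in Ga-L, and its log2 fold change was 1.33 (SE 0.45, edgeR adjusted p = 0.424, from 0.00754 to 0.819). All 3 were the only members with an Ri mean at least 2 times the Ga-H mean. Without Ri replicate 1 all 3 passed the threshold, at log2 fold changes of 2.99, 2.12 and 1.75 with edgeR adjusted p = 0.00471, 0.002 and 0.00754.

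On the side of Ga-H the differences were smaller. Glyma.16G219500.Wm82.a2.v1 was at 14.1, 18.3 and 16.8 FPKM in Ri and 27.1, 33.6 and 21.6 in Ga-H, with 8.48, 9.91 and 9.55 in NM and 7.06, 8.82 and 11.9 in Ga-L. It was the only member with all 3 Ri libraries below all 3 Ga-H libraries, beside 6.82% of all genes tested. Its log2 fold change was -0.74 (SE 0.20, edgeR adjusted p = 0.309, from 0.0906 to 0.688 over the alternatives). Glyma.08G176300.Wm82.a2.v1 was at 2.34, 8.57 and 8.05 FPKM in Ri and 9.83, 13.2 and 3.24 in Ga-H, with a low of 0.6 and a high of 1.95 over NM and Ga-L. Its log2 fold change of -0.47 had an SE of 0.55 (edgeR adjusted p = 0.786, from 0.643 to 0.986). Glyma.01G023300.Wm82.a2.v1 was at 29.9, 35.6 and 32.1 FPKM in Ri and 39, 44.3 and 33.3 in Ga-H, a log2 fold change of -0.25 (SE 0.13, edgeR adjusted p = 0.535, from 0.391 to 0.865). In the other direction, 3 members had all Ri libraries above all Ga-H libraries, beside 5.84% of all genes. They were Glyma.06G082000.Wm82.a2.v1, Glyma.08G363600.Wm82.a2.v1 and Glyma.11G047600.Wm82.a2.v1, named after their values were seen.

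The Ri libraries themselves differed in the members more than those of any other group. The rule ranked the members on the lowest FPKM of the Ri and Ga-H libraries. Of the 19861 genes set beside them below, only 313 had a ratio above 1. The comparison is therefore a description. The median coefficient of variation of the members was 22.7% in Ri, 12.7% in NM, 11% in Ga-H and 11.3% in Ga-L. Over the 19861 genes that met the level and Ga-L conditions it was 13.4%, 10.8%, 10.7% and 11.2%. Ri replicate 1 was the lowest of the 6 high libraries in 54 members, beside 27.4% of those genes, and Ri replicate 2 was the highest in 61, beside 28.2%. Ri replicate 1 was below both other Ri libraries in 74 members (53% of those genes) and above both in 9 (27.8%). The median ratio of Ri replicate 1 to the mean of Ri replicates 2 and 3 was 0.757 in the members and 0.921 in those genes. Relative to the Ga-H mean, the median of Ri replicate 1 was 0.896 and that of the mean of Ri replicates 2 and 3 was 1.2, against 0.963 and 1.05 in those genes. Ri replicate 1 was below all 3 Ga-H libraries in 54 members, beside 33.6% of those genes. Ri replicates 2 and 3 were above all 3 in 47 members, beside 27%. Both held in 32 members, and the joint share over those genes was not computed.

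**Figure D3:**
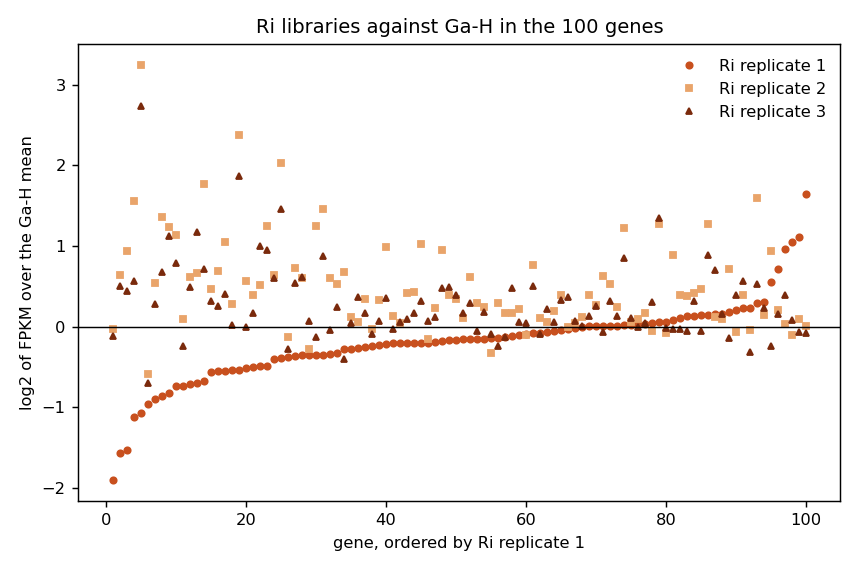
Log2 of the FPKM in each Ri library over the mean of the 3 Ga-H libraries, for the 100 genes in order of Ri replicate 1. Ri replicate 1 is above the Ga-H mean in 32 genes and the mean of Ri replicates 2 and 3 in 87. Over all genes that met the level and Ga-L conditions these shares are 40.3% and 60.5%. The order on the horizontal axis makes the points of Ri replicate 1 rise.

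Without Ri replicate 1, 16 members were called in Ri against Ga-H, all higher in Ri, beside 6.24% of all genes called and 2.48% called higher (edgeR, Benjamini-Hochberg adjusted). Besides the 3 genes above they included Glyma.16G037900.Wm82.a2.v1, the most abundant member, at a log2 fold change of 1.05 (SE 0.23, edgeR adjusted p = 0.0282). A further 3 are named after their values were seen. Glyma.16G155100.Wm82.a2.v1, at 18.8, 102 and 48.9 FPKM in Ri and 32.1, 24.1 and 33.6 in Ga-H, had a log2 fold change of 1.32 (SE 0.31, edgeR adjusted p = 0.0357). Glyma.19G231900.Wm82.a2.v1, at 27 FPKM in Ri replicate 1, averaged 64.5 in Ri replicates 2 and 3 and 26 in Ga-H. Its log2 fold change was 1.29 (SE 0.15, edgeR adjusted p = 0.00341). The smallest log2 fold change of the 16 was 0.61, in Glyma.13G329700.Wm82.a2.v1. Ri replicates 2 and 3 were above all Ga-H libraries in all 16, which the call on these libraries favours. Ri replicate 1 was below all Ga-H libraries in 13 of the 16, beside 54 of the 100 members and 33.6% of the genes that met the level and Ga-L conditions. With any other library left out, 0 members were called, beside at most 0.0216% of all genes. The cause of the low values in Ri replicate 1 was not tested.

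How far the list holds in libraries that did not choose it was read by applying the rule to 11 libraries and looking at the remaining one. When a Ga-H library was left out, 76, 95 and 90 of the 100 genes chosen on the others were above the highest NM or Ga-L library in replicates 1, 2 and 3, beside 22.2%, 22.3% and 19.2% of all genes that met the level and Ga-L conditions. For Ri replicates 2 and 3 it was 95 and 98 genes, beside 34.8% and 34.2%. For Ri replicate 1 it was 50 genes, beside 13.6%. When an NM library was left out, 90, 80 and 93 genes were below the lowest Ri or Ga-H library in replicates 1, 2 and 3, beside 18.4%, 26.7% and 25.4%. For Ga-L replicates 1, 2 and 3 it was 77, 92 and 90 genes, beside 24.2%, 28.7% and 29.1%. Every left-out library was on the side the rule asks for in more of the chosen genes than of the other genes, and Ri replicate 1 in the fewest. The genes of such a list differ from the others in how far the 11 libraries are separated, so the 2 shares describe the list and do not test it.

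**Figure D4:**
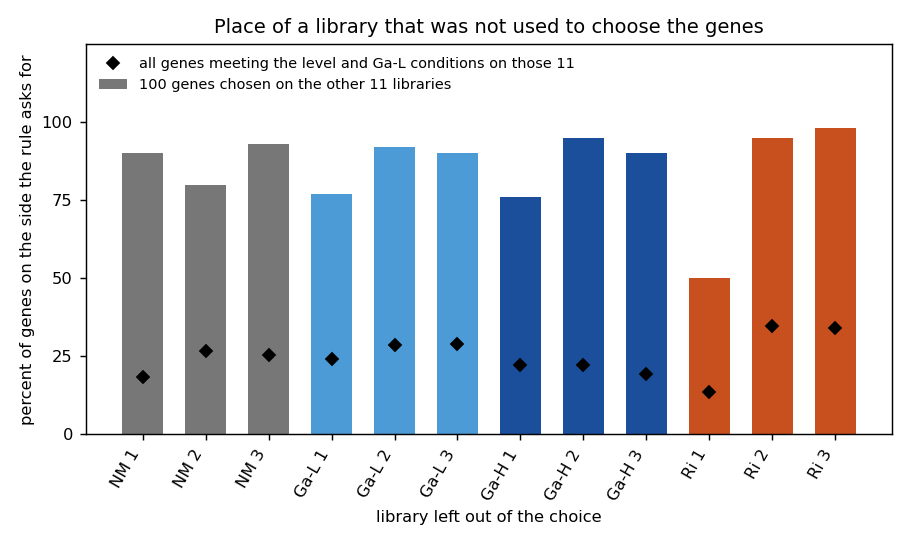
For each library, the percent of the 100 genes chosen without it in which it lay above all NM and Ga-L libraries (Ri, Ga-H) or below all Ri and Ga-H libraries (NM, Ga-L), as bars by group, and the same percent for all genes that met the level and Ga-L conditions, as diamonds. The bars run from 50 for Ri replicate 1 to 98 for Ri replicate 3, and the diamonds from 13.6 to 34.8.

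The list chosen without a library overlapped the 100 genes to a different degree. It held 97 and 90 of them without Ri replicates 3 and 2, but 42 without Ri replicate 1. It held 66, 85 and 78 without Ga-H replicates 1, 2 and 3, 80, 63 and 84 without NM replicates 1, 2 and 3, and 68, 76 and 77 without Ga-L replicates 1, 2 and 3. Without Ri replicate 1 the ratio was above 1 for 847 genes, against 313 with it, and the highest ratio was 8.92. Leaving out a library can only keep or raise the ratio of a gene. The count was made for Ri replicate 1 alone, so the rise cannot be called particular to it. In the 58 genes new to that list, Ri replicate 1 was above the highest NM or Ga-L library in 8, within the range of those libraries in 39 and below all of them in 11. Over all genes that met the level and Ga-L conditions without it, it was above those libraries in 13.6%. The 58 genes entered the list only once Ri replicate 1 was left out, which favours genes low in it. These counts are therefore a description.

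The gene models in the files gave 2 measures that the rule did not use, length and number of transcripts, and neither was tested. The members' median length was 1943 bases, with quartiles of 1336 and 2398, against a median of 1786 for the genes that met the level and Ga-L conditions. A single transcript was listed for 66% of the members and 56.6% of those genes. The shortest member was Glyma.15G238100.Wm82.a2.v1 at 540 bases. The median FPKM over Ri and Ga-H was 12 in the members and 10.2 in those genes, and over NM and Ga-L it was 6.4 and 9.76, an order that the choice on the ratio favours. The Ga-L mean was above the NM mean in 50 of the 100 genes, within the band that the rule set.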

How the data were processed

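Each of the 12 deposited tables holds, per the file headers, a gene length, an expected count and an FPKM value per gene. Bowtie2, HISAT and RSEM are listed, with no version or role, in the submitters' processing notes; as RSEM gives them, expected counts are estimates in which ambiguous reads are divided among genes. The deposited FPKM values were already divided by length and library size by the authors. Gene IDs carry the tag Wm82.a2.v1; the labels name no genome build and no strand setting.

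The 100 genes and all lists were chosen with earlier results of these data known. Expected counts were rounded and tested with edgeR 4.0.16 in R 4.3.3 (default filter by group, 36323 genes, TMM, robust quasi-likelihood fit of all 12 libraries, 1 mean per group, 8 residual degrees of freedom, biological coefficient of variation 22.4%), with Benjamini-Hochberg adjustment over all genes and a threshold of 0.05. Standard errors came from the fold change and F. The fit was tested on simulated data. Alternatives were other scalings, no filter, DESeq2 1.42.0, limma 3.58.1 on log2(FPKM + 1) or log2(FPKM + 0.1), the replicate number as a block, the compared groups alone, each library left out, and other settings of the rule. Genes were named as the 10 highest ratios, the 5 highest levels, the 3 widest Ri and Ga-H differences each way, members within 5 IDs, and ranks 98 to 103. No sequence is given, since the reference table holds none.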

Additional observations from a re-analysis of the deposited data

How the results depend on the processing

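In Ri against Ga-H, 0 members were called under all scalings, filters and tools run, and between 0 and 16 with a library left out. The share of all genes called was at most 0.709% under the former and ran from 0% to 6.24% with a library left out. All shares in this paragraph are for either direction. With a library left out, the counts ran from 55 to 88 for Ri against NM, 12 to 65 for Ga-H against NM, 6 to 82 for Ri against Ga-L, 0 to 56 for Ga-H against Ga-L and 0 to 2 for Ga-L against NM, and 42 to 97 members were chosen again. The shares of all genes called moved too. In the same order they were 7.46% to 27.9%, 4.86% to 12%, 0.605% to 14.9%, 0% to 6.26% and 6.66% to 20.1%. With the compared groups alone the counts were 28, 66, 0 and 55 in the first 4 of these comparisons, beside 5.65%, 11.8%, 0.0288% and 7.06% of all genes. Ga-H against Ga-L gave 42 with DESeq2 and 21 with limma on log2(FPKM + 1), beside 5.8% and 1.62% of all genes. Ga-L against NM gave 1 with upper quartile scaling and with limma at either pseudocount, beside 14.6% to 15% of all genes. The rule chose 62 members again with 1 added in place of 0.1 and 38 on group means. The labels do not say that replicate numbers mark a pairing, and only 6 of 18 same-numbered pairs of libraries deviated together with a correlation over 0.1 (-0.397 to 0.23). Adding replicate number as a block gave counts of 0 for Ri against Ga-H, 80 for Ri against NM, 37 for Ga-H against NM, 52 for Ri against Ga-L, 0 for Ga-H against Ga-L (81 at an unadjusted p under 0.05, beside 19% of all genes) and 0 for Ga-L against NM. The shares of all genes called with the block were 0.011%, 11.8%, 7.31%, 3.51%, 0% and 12.7%. Of 132 recomputed Ri and Ga-H differences of the 6 named genes, 3 passed the threshold, all without Ri replicate 1, and 0 changed direction. Ratios lie close together at rank 100, which limits every count over the 100 genes, and the lowest counts, down to 6 in a library, are the least precise.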

Other observations

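With Ri replicate 1 set aside, some genes outside the 100 ranked among the highest by the same ratio. The genes given here were named after their values were seen. The ratios of the first pair were 8.92 and 3.66, while the highest ratio of a member was 4.43. Glyma.13G363300.Wm82.a2.v1 was at 116 and 33.6 FPKM in Ri replicates 2 and 3 and at 7.76, 13.6 and 14.7 in Ga-H. It was at 0.13 FPKM in Ri replicate 1, and between 0.13 and 0.77 in the NM and Ga-L libraries. Glyma.16G179100.Wm82.a2.v1 was at 106 and 79.1 FPKM in Ri replicates 2 and 3, at 31.7, 47.1 and 22.5 in Ga-H, at 4.3 in Ri replicate 1 and between 4.23 and 6.05 in NM and Ga-L. In both genes Ri replicate 1 lay within the range of NM and Ga-L. Glyma.11G250200.Wm82.a2.v1 (ratio 7.16) and Glyma.14G176500.Wm82.a2.v1 (ratio 3.69), also outside the 100, ranked between them. In the former Ri replicate 1, at 0.25 FPKM, was below all NM and Ga-L libraries (0.31 to 0.6). In the latter it was at 0.14 FPKM, at the low end of their range (0.14 to 0.49). No test was made, since the genes were chosen for this pattern.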
